A study of Mus musculus with 9 samples.

Results

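Cytotoxic lymphocytes kill infected or stressed cells by releasing granules that hold perforin, a pore-forming protein, and granzymes, serine proteases that enter the target and start cell death. They also carry Fas ligand, which triggers the death receptor Fas, and secrete interferon gamma, a cytokine that activates macrophages and raises antigen presentation in epithelium. In the small intestine many such cells are intraepithelial lymphocytes, mostly CD8 T cells lodged between epithelial cells, whose lineage and residence depend on the transcription factor Runx3, and which carry the activation and tissue-retention marker Cd69. These 7 genes, Gzma, Gzmb, Prf1, Fasl, Ifng, Runx3 and Cd69, were chosen by name out of 561 genes on a mouse immunology panel, and each was read by 1 probe.

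RNA came from ileal epithelial cells of male NOD (non-obese diabetic) mice, which become diabetic through autoimmunity, taken at postnatal day 23. All 9 libraries share this strain, sex and age, and there were 3 in each of 3 groups. These were control mice, mice labelled 1PAT antibiotics, and mice labelled cecal material transfer. The labels name no drug, dose or schedule, and leave unstated whether antibiotics preceded the transfer, although the series title presents the transfer as a rescue after antibiotics. Nor do they tie each library to its own animal, so p-values measure only library spread, which may be technical.

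Transcripts were counted on the nCounter platform, where colour-coded probes are hybridised to RNA and counted singly, without amplification. Total counts over the panel ran from 323129 to 747434 per library. Levels are given as CPM, a gene's count over the scaled total of its library. The scale came from TMM, which sets libraries to one level through the bulk of the genes. A level is set only against the same gene in other libraries, since probes of different genes need not capture equally well. Defining epithelial genes Cdh1, Epcam and Krt8 were not on the panel, Muc1 was at or under background in every library and Defb1 in the transfer libraries, and the 5 epithelial markers that were on it summed to 59047 to 99381 CPM in control, 66852 to 96799 in antibiotic and 39194 to 89213 in transfer libraries. The highest sum was in control replicate 3 and the lowest were in transfer replicates 1 and 3. The 10 T cell markers on the panel summed to 12081 to 52382 CPM in control, 59651 to 65952 in antibiotic and 52692 to 93074 in transfer libraries, with the bottom value in control replicate 3. In such bulk RNA fewer lymphocytes and less RNA per lymphocyte cannot be told apart.

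The start-site regions of the granule genes, of Runx3 itself and of Ifng are shown, because RUNX factors are known to bind genes of the CD8 cytotoxic programme. Each is the RefSeq window of 300 bases on build GRCm38.p6, from 250 bases before to 50 after the transcript start, read 5′ to 3′ on the gene's strand. The build is the C57BL/6J reference, and NOD sequence was not used here. Capitals mark the RUNX core letters TGTGGT or TGCGGT on either strand, so that ACCACA is the first of them read on the opposite strand.
Gzma, chr13:113100932-113101231, minus strand: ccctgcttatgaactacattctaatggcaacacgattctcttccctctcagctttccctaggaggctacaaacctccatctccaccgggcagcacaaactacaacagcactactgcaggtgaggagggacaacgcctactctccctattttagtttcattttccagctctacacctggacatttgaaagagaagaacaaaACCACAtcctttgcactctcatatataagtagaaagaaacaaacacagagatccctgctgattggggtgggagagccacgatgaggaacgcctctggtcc
Gzmb, chr14:56262285-56262584, minus strand: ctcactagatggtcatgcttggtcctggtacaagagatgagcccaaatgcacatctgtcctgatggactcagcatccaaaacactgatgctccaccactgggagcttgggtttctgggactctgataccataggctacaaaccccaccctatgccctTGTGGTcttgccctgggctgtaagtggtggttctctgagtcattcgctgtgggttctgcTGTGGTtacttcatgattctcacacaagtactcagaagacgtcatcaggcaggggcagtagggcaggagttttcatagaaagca
Prf1, chr10:61297586-61297885, plus strand: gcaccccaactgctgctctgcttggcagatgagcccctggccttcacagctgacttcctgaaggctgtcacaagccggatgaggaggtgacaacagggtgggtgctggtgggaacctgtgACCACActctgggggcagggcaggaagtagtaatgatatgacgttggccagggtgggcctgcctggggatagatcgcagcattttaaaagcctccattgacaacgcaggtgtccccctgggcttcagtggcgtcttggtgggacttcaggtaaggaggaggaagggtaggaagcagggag
Runx3, upstream start, chr4:135120395-135120694, plus strand: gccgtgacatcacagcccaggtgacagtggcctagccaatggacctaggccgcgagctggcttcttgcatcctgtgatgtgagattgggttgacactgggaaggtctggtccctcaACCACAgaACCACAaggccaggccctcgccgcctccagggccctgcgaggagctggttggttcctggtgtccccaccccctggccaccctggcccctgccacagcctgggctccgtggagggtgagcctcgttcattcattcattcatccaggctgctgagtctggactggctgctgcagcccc
Ifng, chr10:118440796-118441095, plus strand: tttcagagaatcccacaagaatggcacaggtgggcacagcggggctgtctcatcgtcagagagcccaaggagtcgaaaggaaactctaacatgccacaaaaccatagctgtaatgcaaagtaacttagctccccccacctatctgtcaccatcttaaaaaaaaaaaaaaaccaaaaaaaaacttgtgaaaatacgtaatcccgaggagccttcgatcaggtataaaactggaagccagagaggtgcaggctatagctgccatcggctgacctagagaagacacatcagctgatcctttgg
The letters occurred in all 3 granule genes, at 50 bases before the start in Gzma, at 93 and 34 before it in Gzmb, and at 130 before it in Prf1. The Prf1 gene span begins at 61297751, inside this window and before the transcript start used, so the 130 bases are counted from that transcript start. The upstream start of Runx3 held them at 134 and 126 bases before it, while its downstream start at chr4:135152295-135152594 held none. The windows of Fasl (chr1:161788446-161788745) and Ifng held none. In all, 4 of 7 windows of 6 members had a match, against 22.4% of the 32851 windows in the RefSeq table and 25.7% of 428 windows of the other tested panel genes. The T-box letters GGTGTGA were in 0 of the 7 windows (3.98% of all windows), the NFAT letters GGAAAA in 2, Gzma and Fasl (23.4%), and the AP-1 letters TGACTCA in 1, Gzmb (5.2%). No match overlapped another. A match is a string of letters and was not tested as a binding site. Cd69 was named only.

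The granule proteases were abundant in every library, and control and antibiotic libraries overlapped for both. Gzma (chromosome 13, 113093824 to 113100981), the granzyme with trypsin-like specificity, measured 40359, 55617 and 17162 CPM in control replicates 1 to 3, 58505, 67223 and 55396 CPM in the antibiotic libraries, and 71723, 56781 and 82024 CPM in the transfer libraries. Control replicate 3 stood far below the rest, control replicate 2 reached just above the lowest antibiotic library, and every transfer library lay above every control library. The means were 37712 ± 19364 CPM in control, 60375 ± 6131 in antibiotic and 70176 ± 12693 in transfer libraries (SD, n = 3). The coefficient of variation was 51.3% in control libraries, against 10.2% in antibiotic and 18.1% in transfer libraries.

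Gzmb (chromosome 14, 56258836 to 56262334), the granzyme that cleaves after aspartate and activates caspases, measured 29358.5, 42267 and 12674 CPM in control libraries. It measured 39041, 43746 and 29749.6 CPM in antibiotic libraries and 43654, 33112 and 46612 CPM in transfer libraries. Control replicate 2 sat inside the range of both other groups, so the groups overlapped. Its log2 fold change was 0.42 ± 0.38 (SE) for antibiotic and 0.55 ± 0.38 for transfer against control.

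The balance of the 2 granzymes did not depend on how a library was scaled. The log2 ratio of Gzmb to Gzma was -0.46, -0.40 and -0.44 in control libraries, -0.58, -0.62 and -0.90 in antibiotic libraries, and -0.72, -0.78 and -0.82 in transfer libraries. All control libraries lay above all others, control replicate 3 included, so that Gzmb was lower relative to Gzma in both treated groups. This ratio was not among the planned measures and was not tested. How many other pairs of genes separate the groups in this way was not counted. With 3 libraries against 3, an exact two-sided permutation test cannot give a p under 0.1.

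Prf1 (chromosome 10, 61297751 to 61304684), which encodes perforin, was read near background. Its counts were 34, 38 and 11 in control, 13, 12 and 67 in antibiotic, and 38, 76 and 18 in transfer libraries, where the background limit, the mean of the negative-control probes plus 2 SD, was 7.74 to 17.7 counts. Antibiotic replicate 2 was under its limit, and the other 8 libraries were above theirs. As CPM the values were 73.8, 63.8 and 21.2 in control, 25.0, 44.4 and 92.2 in antibiotic, and 98.9, 101 and 26.9 in transfer libraries. Each group held low and high libraries and the 3 groups overlapped throughout. The 95% interval of the log2 fold change for antibiotic against control ran from -1.37 to 1.48, which holds both 0 and the difference measured for Fasl.

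Fas ligand was separated by group. Fasl (chromosome 1, 161780691 to 161788495) measured 367, 352 and 123 CPM in control libraries, 851, 581 and 612.5 CPM in antibiotic libraries, and 778, 587 and 791 CPM in transfer libraries. The lowest treated library stood above the highest control library. Antibiotic and transfer libraries covered the same range, at means of 681 ± 148 and 719 ± 114 CPM (SD, n = 3).

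Ifng (chromosome 10, 118441046 to 118445894), the effector cytokine, had the highest log2 fold change of the 7 members in both comparisons with control. It measured 187, 124 and 44.2 CPM in control, 522, 425 and 344 CPM in antibiotic, and 406, 184 and 364 CPM in transfer libraries. Antibiotic libraries lay clear of control libraries. Transfer replicate 2 fell just under control replicate 1, so transfer overlapped control, and the other 2 transfer libraries lay within the antibiotic range. The order of the means was antibiotic, transfer, control, and the neighbours antibiotic and transfer did not separate.

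Runx3 (chromosome 4, 135120645 to 135177990), the lineage factor, measured 122, 68.8 and 19.2 CPM in control libraries. It measured 300.3, 226 and 156 CPM in antibiotic libraries and 164, 158 and 197 CPM in transfer libraries. Both treated groups lay above every control library, and antibiotic replicate 3 was the lowest of the 6 treated libraries. Its counts were low, from 10 to 56 in control libraries, with the lowest in control replicate 3. Cd69 (chromosome 6, 129267324 to 129275375), which marks recently activated and tissue-resident lymphocytes, measured 324, 319 and 162 CPM in control, 801, 477 and 614 CPM in antibiotic, and 767, 378 and 703 CPM in transfer libraries. Here too the treated libraries all lay above the control libraries, and the 2 treated groups overlapped almost fully.

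**Figure D1:**
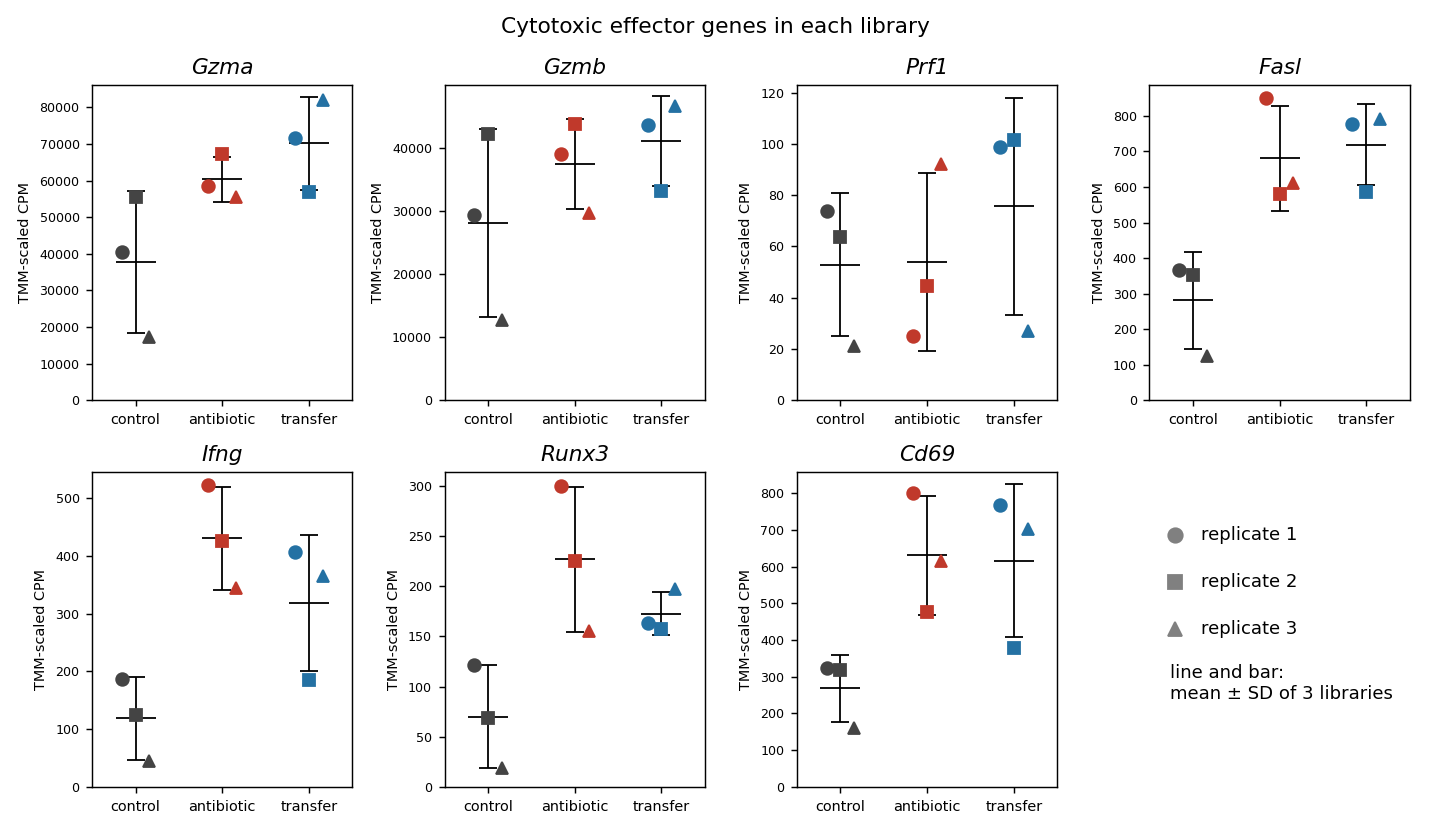
Level of each of the 7 genes (vertical axes, TMM-scaled CPM from 0) in the 9 libraries by group, with the mean and SD of 3 libraries. Fasl, Runx3 and Cd69 in both treated groups lie above all control libraries, Prf1 overlaps in all groups, and control replicate 3 (dark triangle) is the lowest library for all 7 genes.

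The comparison of antibiotic with control libraries asks which transcripts differ after antibiotic exposure. All 7 members had a higher mean in antibiotic libraries, against 50.9% of 470 tested genes with a log2 fold change above 0. Fasl, Ifng, Runx3 and Cd69 did not overlap between the groups, 4 of 7 where 18.1% of tested genes were higher without overlap. Their log2 fold changes were 1.28 ± 0.42 for Fasl, 1.86 ± 0.51 for Ifng, 1.70 ± 0.55 for Runx3 and 1.24 ± 0.41 for Cd69 (SE), a 2.43-fold, 3.64-fold, 3.25-fold and 2.36-fold difference. Gzma had 0.68 ± 0.37, Gzmb 0.42 ± 0.38 and Prf1 0.05 ± 0.66.

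In edgeR's quasi-likelihood test, adjusted over the panel by Benjamini-Hochberg, 0 members passed an adjusted p under 0.05, as did 0% of all tested genes. The adjusted p was 0.08 for Ifng, 0.116 each for Fasl, Runx3 and Cd69, 0.286 for Gzma, 0.554 for Gzmb and 0.968 for Prf1. At an unadjusted p under 0.05 edgeR had 4 members, all higher, where 14.3% of the panel was higher at that level. DESeq2 called the same 4 members, with an adjusted p of 0.0336 for Fasl, 0.00676 for Ifng, 0.0191 for Runx3 and 0.0396 for Cd69, and limma-voom called 0. DESeq2 called 51 genes of the panel, limma-voom 5 and edgeR 0.

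The size of these differences depended on control replicate 3. Without it the log2 fold change was 0.28 for Gzma, 0.01 for Gzmb and -0.36 for Prf1, and 0.88 for Fasl, 1.43 for Ifng, 1.21 for Runx3 and 0.94 for Cd69. The same 4 members kept clear of control without it, beside 20% of tested genes, but for the members this outcome was fixed in advance. Control replicate 3 was the lowest library for all 7 members, so leaving it out could not make the groups overlap. Without control replicate 2, Gzma was at 1.07 and Gzmb at 0.84. Without control replicate 1, Ifng at 2.34 (edgeR adjusted p = 0.0356) and Runx3 at 2.35 (edgeR adjusted p = 0.0417) passed, among 23 of 470 tested genes. No member passed on leaving out any other library. Directions hold relative to the panel only. Spike-in totals, from synthetic RNA added to each hybridisation, averaged 28354 ± 7805 counts in antibiotic and 11642 ± 11174 in control libraries (SD, n = 3), and scaling by them placed all 7 members lower in antibiotic libraries, from -1.90 for Prf1 to -0.53 for Ifng, with the panel median at -1.92.

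**Figure D2:**
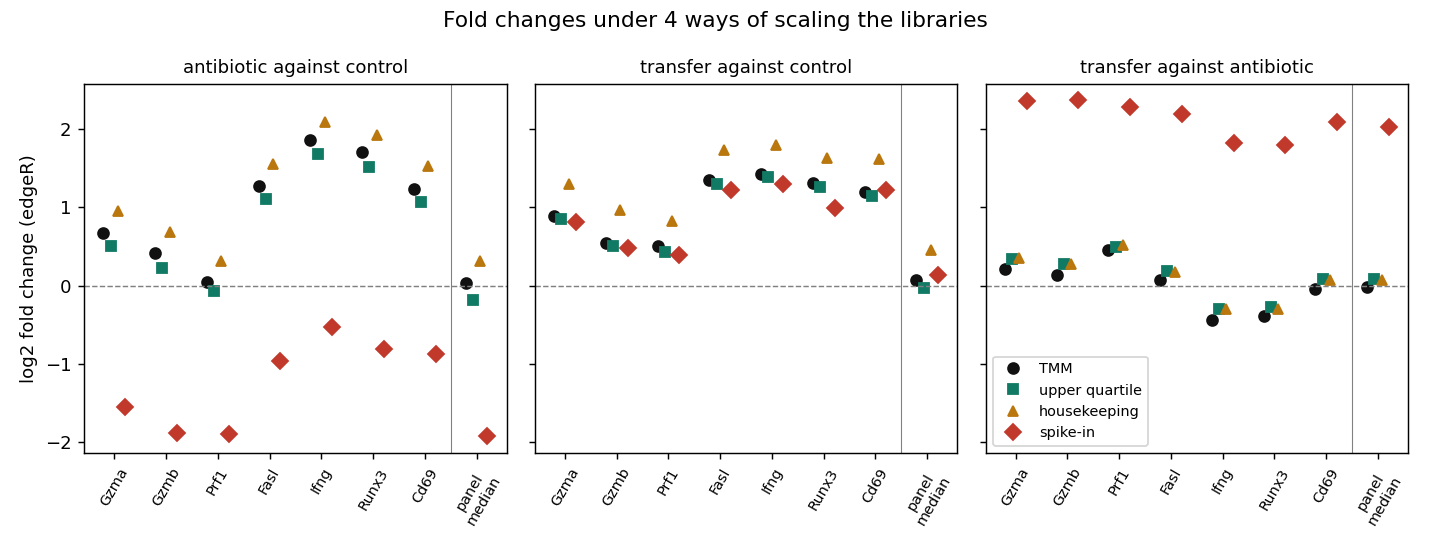
edgeR log2 fold change (vertical axis) of each gene and of the panel median in the 3 comparisons, with libraries scaled in 4 ways. With spike-in scaling all points of antibiotic against control lie below 0 and those of transfer against antibiotic above it, together with the panel median. The order Ifng and Runx3 above the granule genes in antibiotic against control is the same in all 4. A change of scale moves all genes of a library together, so this shared order adds no support.

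The comparison of transfer with control libraries asks whether expression after cecal transfer departs from that of untreated mice. It uses the same control libraries as the comparison above. Again all 7 members had a higher mean in transfer libraries (52.8% of tested genes had a log2 fold change above 0), and Gzma, Fasl, Runx3 and Cd69 did not overlap with control, 4 of 7 against 15.7% of tested genes. The log2 fold change was 0.90 ± 0.37 for Gzma, 1.35 ± 0.42 for Fasl, 1.42 ± 0.51 for Ifng, 1.31 ± 0.55 for Runx3 and 1.20 ± 0.41 for Cd69 (SE), and that of Prf1 was 0.51 ± 0.66. The lowest of the 7 was that of Prf1, beside a panel median of 0.08.

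By edgeR 0 of 7 members and 0% of the panel passed, with an adjusted p of 0.185 for Fasl, Ifng and Cd69, 0.208 for Gzma and Runx3, 0.366 for Gzmb and 0.628 for Prf1. These 5 leading members had an unadjusted p under 0.05, where 15.1% of the panel was higher at that level. DESeq2 called Fasl (adjusted p = 0.0252), Ifng (adjusted p = 0.04) and Cd69 (adjusted p = 0.044) among 40 genes, and limma-voom called 0. Without control replicate 3 the log2 fold changes were 0.51 for Gzma, 0.16 for Gzmb, 0.07 for Prf1, 0.96 for Fasl, 0.99 for Ifng, 0.83 for Runx3 and 0.90 for Cd69. The same 4 members stayed clear of control (16.4% of tested genes). They had to, since the library left out was the lowest for every member, so this adds no support. Without control replicate 2, Gzmb was at 0.97. With spike-in scaling all 7 stayed above 0, from 0.39 for Prf1 to 1.30 for Ifng.

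The comparison of transfer with antibiotic libraries asks whether the transfer moves expression off the antibiotic level. Of the 7 members 4 were higher, where 48.7% of tested genes were, and 0 separated the 2 groups, where 3.62% of tested genes were higher and 3.83% lower without overlap. Ifng had a log2 fold change of -0.44 ± 0.49 and Runx3 -0.39 ± 0.53, while Prf1 had 0.46 ± 0.66, Gzma 0.22 ± 0.37, Gzmb 0.13 ± 0.38, Fasl 0.08 ± 0.41 and Cd69 -0.04 ± 0.40 (SE). Each had an edgeR adjusted p of 0.993, and 0% of the panel passed. At an unadjusted p under 0.05 there were 0 members and 12 of 470 genes (2.55%), and DESeq2 and limma-voom each called 0 genes.

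The intervals leave room for sizeable differences in either direction. The unadjusted 95% interval of the log2 fold change ran from -0.58 to 1.01 for Gzma, from -0.69 to 0.95 for Gzmb, from -0.96 to 1.87 for Prf1, from -0.82 to 0.97 for Fasl, from -1.50 to 0.62 for Ifng, from -1.54 to 0.75 for Runx3 and from -0.91 to 0.83 for Cd69. With spike-in scaling all 7 members lay above 0, from 1.80 for Runx3 to 2.37 for Gzmb, beside a panel median of 2.03.

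**Figure D3:**
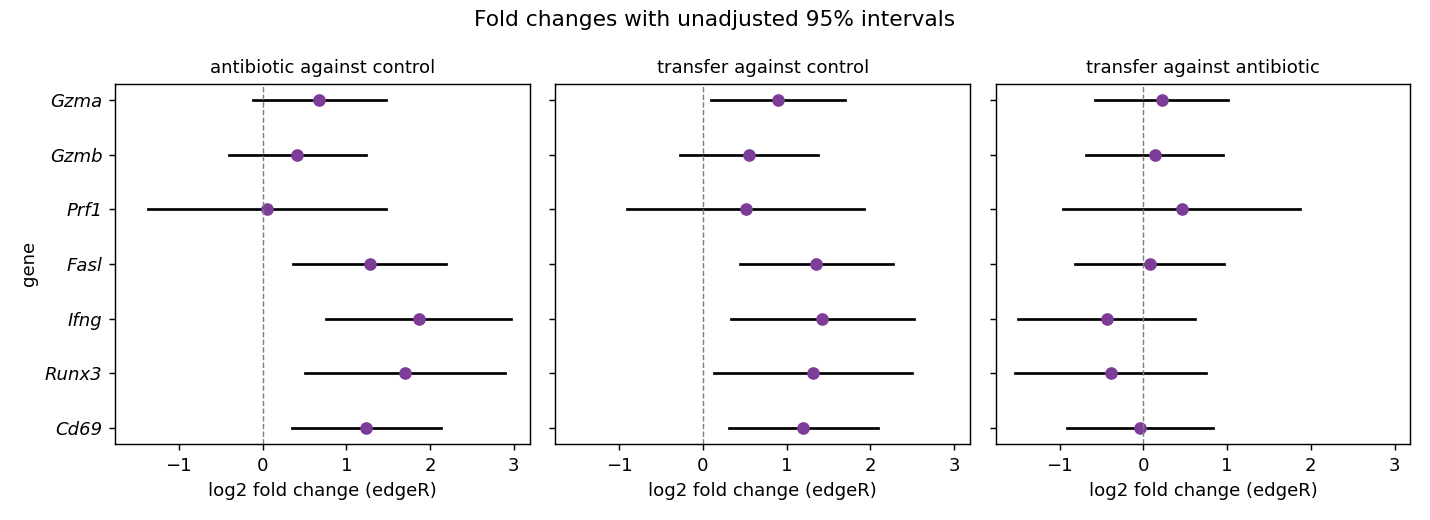
edgeR log2 fold change (point) and unadjusted 95% interval (line) of each gene in the 3 comparisons. Against control, the intervals of Fasl, Ifng, Runx3 and Cd69 lie above 0 in both treated groups, and for transfer against antibiotic every interval spans 0.

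A measure that needs no scaling between libraries is the level of a gene relative to T cell markers in the same library. It was taken as the gene's log2 CPM minus the mean log2 CPM of 10 T cell markers, and is a description without a test. Ifng was at -1.44, -1.61 and -1.65 in control libraries, -0.15, -0.17 and -0.81 in antibiotic libraries, and -1.15, -1.39 and -1.33 in transfer libraries. The 3 groups did not overlap on this scale, with antibiotic highest, transfer between and control lowest, and control replicate 3 lay with the other control libraries. Transfer and control nearly touched, at -1.39 in transfer replicate 2 (138 Ifng counts) and -1.44 in control replicate 1 (86 counts). How many panel genes separate all 3 groups in this way was not counted. The mean difference was 1.19 for antibiotic against control, 0.28 for transfer against control and -0.91 for transfer against antibiotic. Leaving out 1 library gave 1.08 to 1.41, 0.21 to 0.34 and -1.13 to -0.80 for these, and with Cd3e, a chain of the T cell receptor complex, in place of the 10 markers they were 0.86, 0.34 and -0.52.

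Runx3 and Fasl were also higher relative to T cell markers in antibiotic than in control libraries, without overlap. Runx3 measured -2.05, -2.43 and -2.71 in control and -0.94, -1.08 and -1.94 in antibiotic libraries on this scale, and the transfer libraries, at -2.44, -1.61 and -2.20, overlapped both. Fasl had a mean of -0.29 ± 0.18 in control, 0.28 ± 0.27 in antibiotic and -0.06 ± 0.28 in transfer libraries (SD, n = 3). On this scale Cd69 was lower in every transfer library than in every antibiotic library, by a mean of -0.49, and overlapped with control in both. Its own log2 fold change for transfer against antibiotic was -0.04, while 9 of the 10 T cell markers were higher there, with a median of 0.40. Gzma and Gzmb overlapped in all 3 comparisons, with a difference of 0.0005 and -0.27 for antibiotic against control. Of 7 members 3 were thus higher without overlap in antibiotic than in control libraries, against 8.55% of 456 endogenous genes. In transfer against control 1 of 7 was higher (2.41%), and in transfer against antibiotic 2 of 7 were lower (10.7%).

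**Figure D4:**
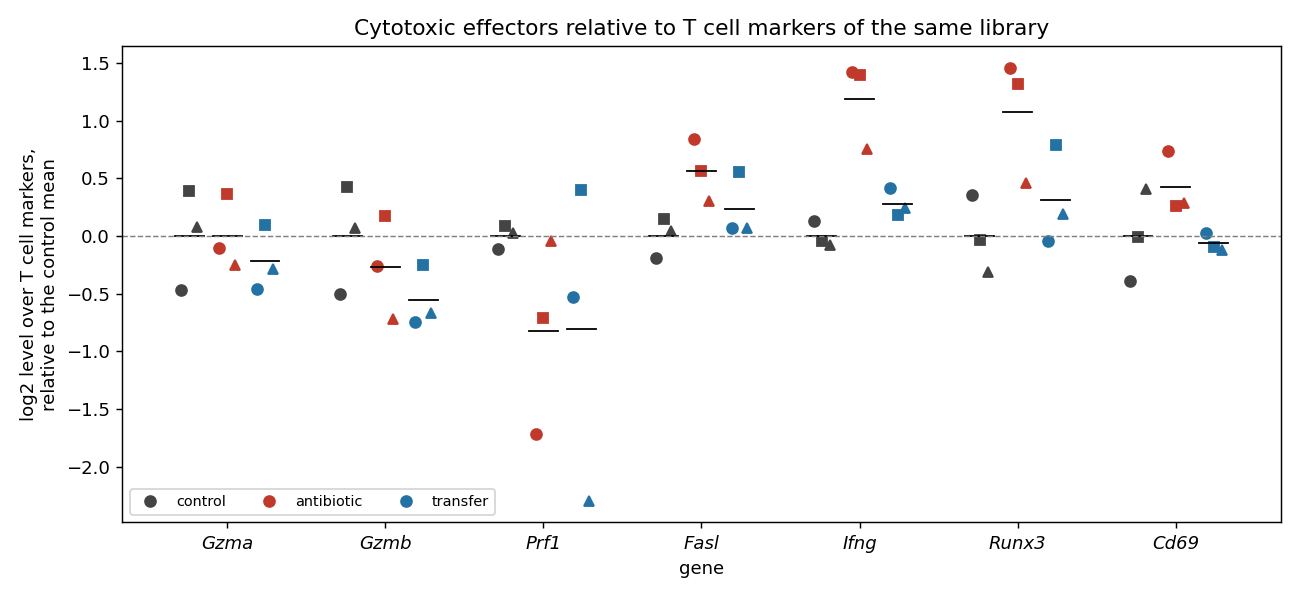
Log2 level of each gene relative to the mean of 10 T cell markers in the same library (vertical axis), shown as the difference from the control mean, with lines for group means. Antibiotic libraries of Ifng, Runx3 and Fasl lie above the control libraries, and transfer libraries of Ifng and Cd69 lie below the antibiotic libraries.

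The members shared a profile across libraries, apart from Prf1. The root-mean-square difference between a member's centred log2 CPM and the mean of the other 6 was 0.22 for Fasl, 0.26 for Gzma, 0.32 for Cd69, 0.37 for Gzmb, 0.51 for Ifng, 0.52 for Runx3 and 0.96 for Prf1. Outside the members, the 5 genes nearest to their mean profile were Cd160 (0.16), a receptor of intraepithelial lymphocytes, Tcf7 (0.17), the T cell factor TCF-1, Nt5e (0.18), the ectonucleotidase CD73, Klra5 (0.18), a Ly49 family receptor, and Ccl5 (0.18), a chemokine of effector T cells. The median over 449 genes was 0.84. Much of this likeness lay in control replicate 3, where the mean profile was at -1.78, against -0.30 to 0.60 in the other libraries. Without that library these 5 genes ranked at 6, 4, 1, 11 and 12.

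Genes that act with the members were counted from 4 lists. Of the killing partners, which are the death receptor pathway downstream of Fas and other killing ligands, 9 were tested, with 4 higher and 5 lower in antibiotic libraries, a median log2 fold change of -0.09 (panel median 0.03) and 0 passing. Lymphotoxin alpha, Lta, had 0.90 ± 0.52 and Tnf 0.81 ± 0.65 against control. In transfer against control 3 were higher and 6 lower, with a median of -0.28 (panel median 0.08), and the 2 leading genes went opposite ways, Fadd, the adaptor of Fas, at -1.41 ± 0.63 and Lta at 1.11 ± 0.52. In transfer against antibiotic 3 were higher and 6 lower, with Fadd at -0.94 ± 0.65 and Fas itself at -0.45 ± 0.33 (SE). Fadd was read at a low level, near background after transfer. Its mean was 44.4 ± 31.4 CPM for control and fell to 16.4 ± 5.5 CPM after transfer (SD, n = 3), and these groups overlapped. Both Fadd differences named here therefore rest on few counts. In transfer against antibiotic the median was -0.10 (panel median -0.02). The list median thus lay below the panel's in all 3 comparisons, but whether these gaps exceed the spread of the genes was not tested.

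Of the genes that induce or answer interferon gamma, 16 were tested, and they split into 8 higher and 8 lower in both treated groups against control, with medians of 0.07 and 0.07 (panel medians 0.03 and 0.08) and 0 passing. Irf1, a transcription factor induced by interferon gamma, had -0.82 ± 0.32 in antibiotic and -0.79 ± 0.32 in transfer libraries against control. Among the inducers, Il18r1, a chain of the interleukin-18 receptor, had 0.98 ± 0.40 in antibiotic and Stat4, which relays interleukin-12 signals, 1.01 ± 0.45 in transfer libraries against control. In transfer against antibiotic 13 of 16 were lower, with a median of -0.17 (panel median -0.02), and the smallest p belonged to Il12rb2 at 0.92 ± 0.65 and Il2rb at 0.46 ± 0.39 (SE).

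The list of CD8 lineage factors and partners of Runx3 also held the CD8 chains Cd8a and Cd8b1. Of its 11 tested genes, 8 were higher in antibiotic and 10 in transfer libraries against control, with medians of 0.73 and 0.79 and 0 passing. Lower in antibiotic libraries were Zbtb7b at -0.39, Cd8b1 at -0.19 and Gata3 at -0.02, and in transfer libraries Zbtb7b at -0.59. Over the panel 50.9% and 52.8% of tested genes were above 0, with medians of 0.03 and 0.08. Bcl6, a transcriptional repressor of follicular lymphocytes, had 1.20 ± 0.33 (edgeR adjusted p = 0.08) and Ikzf2, which encodes Helios, 1.06 ± 0.48 in antibiotic libraries. Cd8a, the CD8 alpha chain, had 1.19 ± 0.43 and Bcl6 0.79 ± 0.33 in transfer libraries. In transfer against antibiotic 6 of 11 were higher, with Cd8b1, the CD8 beta chain, at 1.58 ± 0.69 and Bcl6 at -0.40 ± 0.33 (SE).

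Activation markers other than Cd69 were higher in 7 of 8 tested in antibiotic and 8 of 8 in transfer libraries, with medians of 1.54 and 1.16 and 0 passing in edgeR, beside panel medians of 0.03 and 0.08 and 50.9% and 52.8% of tested genes above 0. In each comparison 5 were higher at an unadjusted p under 0.05, as were 14.3% and 15.1% of the panel. Cd40lg, the CD40 ligand of activated T cells, had 2.08 ± 0.55 and Il2ra, the alpha chain of the interleukin-2 receptor, 2.09 ± 0.57 in antibiotic libraries (edgeR adjusted p = 0.08 for each). In transfer against control Cd40lg had 1.54 ± 0.55 and the co-stimulatory receptor Cd28 1.09 ± 0.40. In transfer against antibiotic 5 of 8 were lower, with a median of -0.35 (panel median -0.02), Nfatc2 at 0.80 ± 0.52 and Il2ra at -0.74 ± 0.54 (SE).

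Markers of other cells went in different directions, and their part in the results was not tested. B cell markers, 9 of 9 on the panel, summed to 2054 to 5614 CPM in control, 7509 to 9586 in antibiotic and 5886 to 10428 in transfer libraries. Of the NK cell markers 7 of 10 were on the panel, of which 2 were tested and Klra1, Klra7 and Cd244 were at or under background in every library, with sums of 76.9 to 189, 175 to 244 and 136 to 198 CPM. Myeloid markers, 7 of 10, summed to 2154 to 2899.7 CPM in control, 976 to 1338 in antibiotic and 1066 to 1492 in transfer libraries. Most of that sum was Cd14, the lipopolysaccharide co-receptor, with a log2 fold change of -1.42 for antibiotic and -1.23 for transfer against control, and of the 7 genes 5 were lower and 2, Emr1 and Itgax, higher in each of these comparisons, with 0 passing. Of the 4 epithelial markers tested, 2 were higher and 2 lower in antibiotic against control (median 0.12), and all 4 were lower in transfer libraries, with a median of -0.42 against control and -0.52 against antibiotic and 0 passing. CD8 and intraepithelial lymphocyte markers, 10 of 11 on the panel, with Itgae not on it and Cd244 at or under background, summed to 2934 to 12264, 16929.8 to 20427 and 14121 to 23451 CPM.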

How the data were processed

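The authors deposited raw nCounter counts per probe for 9 libraries (547 endogenous, 14 housekeeping, 8 negative-control and 6 spike-in probes, per the file headers), made from TRIzol-extracted RNA, per the labels' protocols. Counting software is not given in the sources used here. Their deposited normalised signal was the counts times a library factor of 0.734 to 1.82, as its values showed.

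Genes were tested where counts exceeded the negative-control mean by over 2 SD in 3 or more libraries (470 of 561, the 7 members among them). edgeR 4.0.16 in R 4.3.3 fitted all 9 libraries together (TMM, glmQLFit, glmQLFTest, 6 residual degrees of freedom, no covariate, prior count of 2 for log2 CPM). Standard errors are those the test implies. The procedure was tested on simulated data. Depth was 323129 to 747434 counts, and the lowest member count was 10.

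Members and lists were chosen with earlier results of these data known. All members were named, with the 2 list genes of smallest p per comparison and the 5 genes nearest in profile. Between libraries of a group the chi-square per degree of freedom was lowest for transfer replicates 1 and 3, at 6.75, and next lowest at 26.7. No cutoff for a duplicate was set, and this measure cannot tell whether libraries came from separate animals. Same-numbered libraries did not deviate together (correlation -0.49 to 0.34, over 0.1 in 2 of 9 pairs), and numbers were not treated as pairs. With 3 libraries a group, these correlations cannot settle whether the numbers mark a pairing. Alternatives used DESeq2 1.42.0, limma 3.58.1 (voom, and the deposited signal on the log2 scale), other scalings and filters, subtracted background, fits of 2 groups, the replicate block, and each library left out.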

Additional observations from a re-analysis of the deposited data

How the results depend on the processing

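Directions of the 7 genes against control held in every alternative for transfer, and for antibiotic in every one except spike-in scaling and, for Prf1 only, 4 others. For antibiotic against control, edgeR's 0 genes became 51 with DESeq2 (4 members), 5 with limma-voom, 12 with upper-quartile factors, 2 with spike-in scaling and 1 with the deposited signal as log2(value + 8), and 0 to 23 on leaving out 1 library (0 to 2 members), where removing control replicate 1 gave 23, removing control replicate 3 gave 9 and removing antibiotic replicate 3 gave 1. For transfer against control it became 40 with DESeq2 (3 members), and 0 to 2 on leaving out 1 library (0 members), with 1 without control replicate 1 and 2 without control replicate 3. For transfer against antibiotic every alternative gave 0. With spike-in scaling the antibiotic against control log2 fold changes were -1.55 for Gzma, -1.88 for Gzmb, -1.90 for Prf1, -0.96 for Fasl, -0.53 for Ifng, -0.81 for Runx3 and -0.87 for Cd69. Prf1 also turned to -0.071 with upper-quartile factors and -0.0037 with background subtraction, and ranged from -0.64 to 0.40 on leaving out 1 library. For transfer against antibiotic, spike-in scaling gave 1.83 for Ifng, 1.80 for Runx3 and 2.09 for Cd69. Cd69, near 0, turned to 0.083 with upper-quartile factors, 0.078 with housekeeping scaling, 0.016 without a filter, 0.042 among genes above the limit in all 9 libraries, and 0.0905 and 0.089 with the deposited signal as log2(value + 1) and log2(value + 8). On leaving out 1 library there, Cd69 ran from -0.20 to 0.22, Fasl from -0.042 to 0.27 and Gzmb from -0.0094 to 0.27. The cause of these changes was not tested.

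The medians over T cell markers differed by 0.55 for antibiotic against control (0.40 to 0.64 on leaving out 1 library), 0.07 for transfer against control (-0.07 to 0.14) and -0.49 for transfer against antibiotic (-0.57 to -0.33), alternatives chosen after seeing the data. With the replicate number as a block, 0 genes and 0 members passed in each of the 3 comparisons, as without it, and 1 of 9 libraries correlated best with its own number. The strictest filter left out Prf1, so it gave no value for it.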
